A study of Mus musculus with 8 samples.

Results

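The genes of the proteasome were examined in undifferentiated spermatogonia, the testis cells that hold the stem cells of the male germline, after deletion of the telomerase gene Tert. Members were the rows of the authors' deposited table whose gene symbol begins with Psm, a letter from a to g and a digit, which gave 49 of 14853 rows. RefSeq lists 51 protein-coding genes with such symbols. Of these, Psme3ip1 stands in the table under another symbol, and Psmb8, a subunit of the immune proteasome, was not analysed here.

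The samples were sorted cells of C57BL/6 mice aged 8 to 12 weeks, 7 days after a tamoxifen injection. In 4 samples the mice carried a CreER allele of Tert opposite a loxP-flanked (flox) allele, and in 4 samples a CreER allele opposite a normal allele. Both groups thus carried Cre recombinase at Tert, received tamoxifen, and had 1 copy of a tdTomato reporter at the Rosa locus that Cre switches on. Sorting took tdTomato-fluorescent cells that were KIT-negative and bright for MCAM, so only cells with Cre activity were sampled. Whether each sample came from its own mouse is not given here. Values per library were not used here, and every fold change below comes from the comparison the authors made between the groups. It is given as log2 of flox over CreER/+, read from the table's name, with the standard error (SE) that the authors' fit gave. Tert itself stood at 0.29 (adjusted p 0.595, SE 0.26) in the authors' deposited table. Reads from exons that Cre leaves in place could count for Tert, so neither the labels nor the direction can be checked with it.

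The proteasome is the protease that degrades proteins tagged with ubiquitin. Its core particle is a barrel of alpha rings, which gate entry, around beta rings, 3 kinds of whose subunits cut peptide bonds. A regulatory particle caps the barrel. The ATPases in its base unfold substrates, and its lid removes the ubiquitin chain. Other caps activate the core without ubiquitin, dedicated chaperones assemble the parts, and germ cells make a variant core with the alpha subunit PSMA8. Protein turnover by these particles is needed for cell division and for the remodelling of cells during sperm formation.

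As a set, most of these genes stood slightly above 0, and few were called one by one. In the authors' deposited table, 42 of 49 members had a log2 fold change above 0, beside 50.1% of all 14853 rows. Their median was 0.14, or 1.10-fold, against 0.000707 over all rows. At an adjusted p under 0.05, 2 members rose, Psme2b and Psmg1, and 0 fell. That is 4.08% of members beside 5.36% of all rows, of which 1.94% were higher and 3.42% lower, so the share of members called lies near the background. At an unadjusted p under 0.05, 15 members were higher and 2 lower in the authors' deposited table, or 30.6% and 4.08%, beside 9.15% and 10.5% of all rows. These counts are over genes measured in the same libraries, which are not independent of each other.

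The SEs of the members ranged from 0.06 to 0.43 with a median of 0.10, and the median SE of all rows was 0.17. The members were also abundant, with a median mean normalized count of 1009 against 192 over all rows, and 46 of them had a mean count of at least 100. The plot of log2 fold changes by role shows the members beside their intervals.

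**Figure D1:**
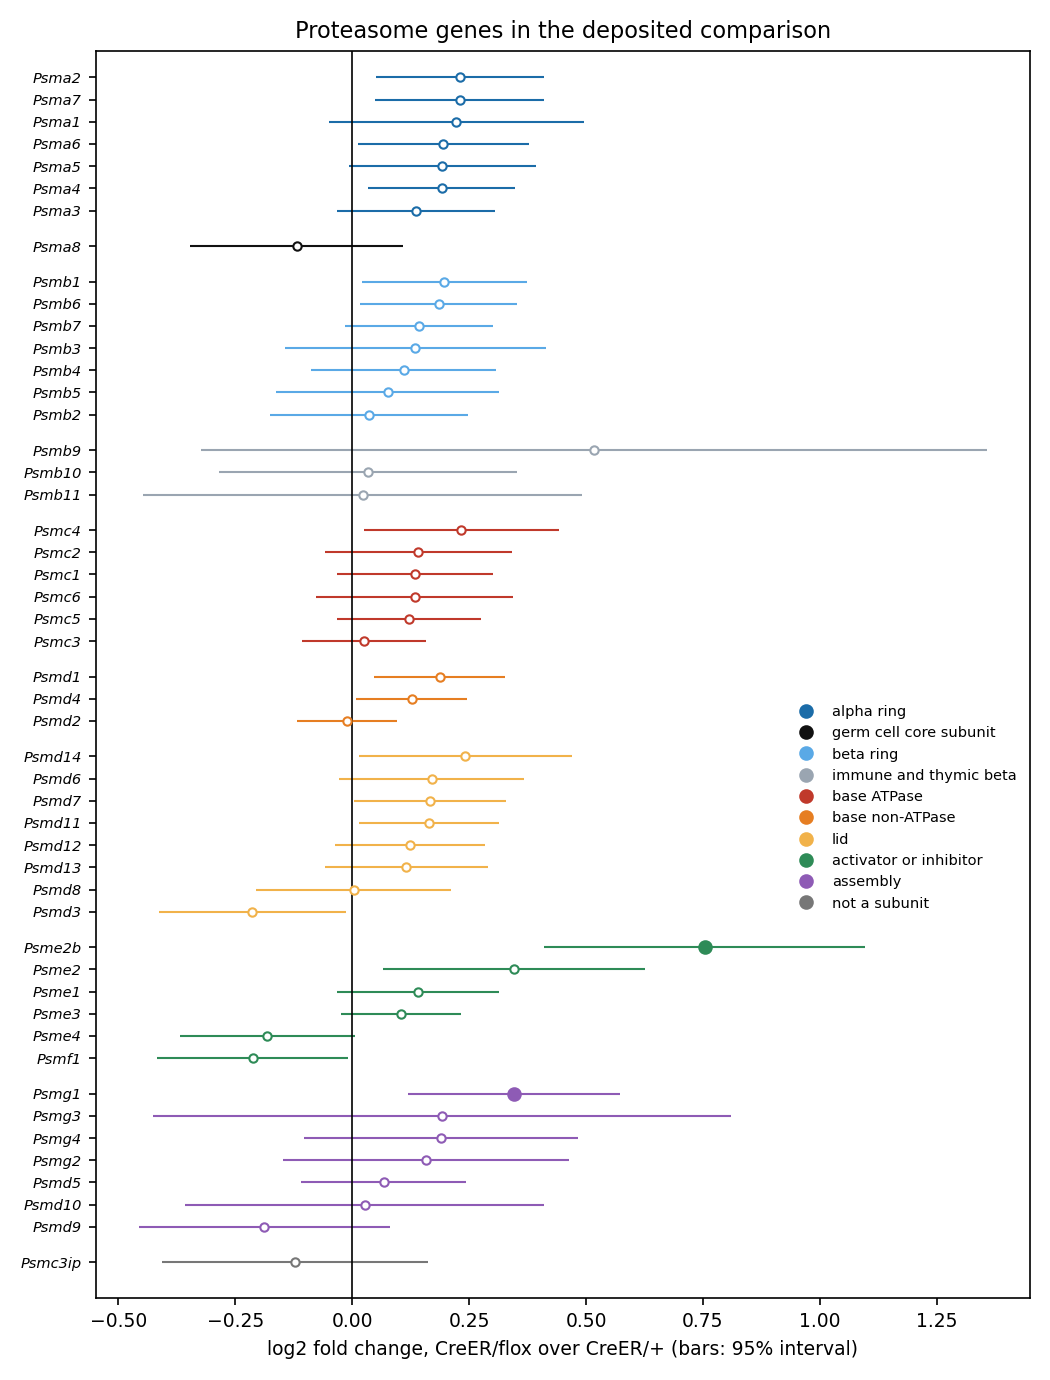
Log2 fold change of CreER/flox over CreER/+ for the 49 members, grouped and coloured by role. Bars are 95% intervals from the authors' SE, and filled points passed an adjusted p of 0.05. The 14 alpha and beta ring genes stand above 0, whereas Psma8, Psmd3, Psmf1, Psme4, Psmd9, Psmc3ip and Psmd2 stand below it.

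Promoters of the members were read as a description. Those of the called genes Psmg1 and Psme2b are printed, with that of Psme2 for its likeness to Psme2b, and those of Psma2, Psmd14 and Psmb5 as ring and lid genes that hold a motif. In all, 9 motifs were searched. Each line gives the 250 bases before the RefSeq start site in GRCm38.p6, 5′ to 3′ along the gene. Capitals mark, on either strand, CCGGAAG, TGACNNNGC, the palindrome of nuclear respiratory factor (its letters stand in capitals in Psma2 and Psmd14) or the core of the interferon-stimulated response element. Searches for the motifs ran independently, so matches may overlap.
Psmg1 promoter (chr16:95990961-95991210, minus strand): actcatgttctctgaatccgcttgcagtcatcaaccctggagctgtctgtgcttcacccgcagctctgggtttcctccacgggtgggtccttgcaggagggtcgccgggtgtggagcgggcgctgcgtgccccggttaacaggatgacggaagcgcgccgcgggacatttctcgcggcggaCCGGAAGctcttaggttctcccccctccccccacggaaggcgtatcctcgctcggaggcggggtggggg
Psme2b promoter (chr11:48946411-48946660, minus strand): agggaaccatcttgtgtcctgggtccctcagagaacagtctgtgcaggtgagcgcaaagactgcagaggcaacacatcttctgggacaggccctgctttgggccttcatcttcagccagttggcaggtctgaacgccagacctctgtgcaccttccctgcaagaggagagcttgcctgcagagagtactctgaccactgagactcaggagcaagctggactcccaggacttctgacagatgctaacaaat
Psme2 promoter (chr14:55591102-55591351, minus strand): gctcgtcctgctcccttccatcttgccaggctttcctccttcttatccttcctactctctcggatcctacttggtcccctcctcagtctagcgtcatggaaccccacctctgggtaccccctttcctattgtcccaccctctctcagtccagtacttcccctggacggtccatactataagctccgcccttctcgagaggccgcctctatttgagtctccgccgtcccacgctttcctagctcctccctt
Psma2 promoter (chr13:14612992-14613241, plus strand): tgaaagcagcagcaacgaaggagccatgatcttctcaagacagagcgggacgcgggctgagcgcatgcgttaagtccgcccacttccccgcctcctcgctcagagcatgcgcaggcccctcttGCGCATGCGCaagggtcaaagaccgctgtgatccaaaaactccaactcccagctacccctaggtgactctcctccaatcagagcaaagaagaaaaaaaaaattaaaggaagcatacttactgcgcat
Psmd14 promoter (chr2:61711444-61711693, plus strand): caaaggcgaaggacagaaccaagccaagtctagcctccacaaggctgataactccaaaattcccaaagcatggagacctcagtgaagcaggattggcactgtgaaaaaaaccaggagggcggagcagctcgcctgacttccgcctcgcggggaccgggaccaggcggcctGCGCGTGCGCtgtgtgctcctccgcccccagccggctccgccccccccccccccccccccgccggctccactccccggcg
Psmb5 promoter (chr14:54617996-54618245, minus strand): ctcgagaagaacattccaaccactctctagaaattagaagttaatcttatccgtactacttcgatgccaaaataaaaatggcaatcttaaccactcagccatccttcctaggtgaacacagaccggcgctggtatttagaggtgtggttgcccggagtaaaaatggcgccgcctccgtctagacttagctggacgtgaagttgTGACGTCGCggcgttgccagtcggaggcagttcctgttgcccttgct

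Promoter entries were found for 41 of the 49 members, with 44 promoters. The letters CCGGAAG, the core bound by ETS factors, were in 31.8% of these promoters, in 12.5% of the 14659 promoters of genes in the table and in 6.91% of all 32851 promoters. The nuclear respiratory factor palindrome was in 13.6%, against 7.52% and 3.74%. The interferon element core was in 6.82%, against 2.30% and 2.98%, which is 3 windows, those of Psmb3, Psmd4 and Psmd9. It was absent from the windows of Psmb9, Psmb10, Psme1 and Psme2. TGACNNNGC, which holds the core of the antioxidant response element read by the product of Nfe2l1, was in 11.4%, against 11.6% and 10.2%. CCAAT was in 34.1%, against 36.1% and 33.9%, and GGGCGG in 52.3%, against 54.6% and 32.7%. CACGTG was in 9.09%, against 8.39% and 6.02%, and TATAAA in 6.82%, against 6.81% and 12.4%. TTCNNNGAA was in 2.27%, against 5.84% and 7.02%. These shares are descriptions of windows, and member windows that share a gene were counted apart. All genes with a printed window lie above 0. Among members below 0, windows of Psmd2 (-0.01), Psme4 (-0.18) and Psmc3ip (-0.12) also hold CCGGAAG, and those of Psmf1 and Psmd9 do not. Whether any motif goes with the fold changes was not tested. The median GC content was 57.6% in member windows and 59.2% in windows of genes in the table. In Psmg1 the match to CCGGAAG begins 69 bases before the start site. In Psmb5 TGACNNNGC begins 47 bases before it, and the palindrome of nuclear respiratory factor begins 80 bases before it in Psmd14 and 127 bases before it in Psma2. No capitals occur in the windows of Psme2 and Psme2b, which says only that these letters are not there. The Psme2b window also lies inside 9930111J21Rik1 (48946150 to 48979381), a gene annotated on the same strand.

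The core particle gave the narrowest set of values. All 14 genes of the constitutive alpha and beta rings were above 0 in the authors' deposited table, from 0.04 to 0.23, with a median of 0.19 (1.14-fold). None passed the test, and the smallest adjusted p was 0.117. At an unadjusted p under 0.05, 6 of the 14 were higher and 0 lower. The standard deviation of the 14 values was 0.06, beside a median SE of 0.09.

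Among the alpha ring genes, whose products form the outer gate of the barrel, values ran from 0.14 to 0.23. Psma2 was highest in the authors' deposited table (0.23, adjusted p 0.117, SE 0.09, mean count 884), next to Psma7 (0.23, adjusted p 0.121, SE 0.09). Psma3 was lowest (0.14, adjusted p 0.393, SE 0.09) in the authors' deposited table. The beta ring had a median of 0.14, below the 0.20 of the alpha ring. Psmb1 was its highest value (0.20, adjusted p 0.187, SE 0.09) and Psmb2 its lowest (0.04, adjusted p 0.905, SE 0.11) in the authors' deposited table. Neither of these differences between genes was tested.

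The subunits that carry out cleavage are encoded by Psmb5, with chymotrypsin-like activity, Psmb6, with caspase-like activity, and Psmb7, with trypsin-like activity. Psmb6 stood at 0.19 (adjusted p 0.193, SE 0.09) and Psmb7 at 0.14 (adjusted p 0.316, SE 0.08) in the authors' deposited table. Psmb5 stood at 0.08 (adjusted p 0.803, SE 0.12), with a 95% interval from -0.16 to 0.31, in the authors' deposited table. None of the cleaving subunits passed the test, and their 95% intervals reach at most 0.35 on the log2 scale. These intervals take a normal distribution, and with the other distributions given in the closing section they would be wider. The Psmb5 value is uncertain because 57.1% of the 50-base words of its longest transcript also occur in transcripts of other annotated genes, mostly the pseudogene Gm3375. The sources used here do not say how reads that fit several places were counted.

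None of the genes for special core particles passed the test. Psma8, the alpha subunit of the germ cell core and a relative of Psma7, stood at -0.12 (adjusted p 0.635, SE 0.12, mean count 457) in the authors' deposited table, with a 95% interval from -0.35 to 0.11. Of the immune subunits, which replace cleaving subunits in cells exposed to interferon, Psmb9 had the lowest count of any member (24.9) and a value of 0.52 (adjusted p 0.550, SE 0.43) in the authors' deposited table. Its interval from -0.32 to 1.36 is the widest among the members. Psmb10 stood at 0.03 (adjusted p 0.944, SE 0.16) and the thymic subunit gene Psmb11 at 0.02 (adjusted p 0.976, SE 0.24) in the authors' deposited table. No change in these 4 genes was detectable at this depth.

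In the regulatory particle, 15 of 17 genes were above 0, with a median of 0.13 and 0 called, while 6 were higher and 1 lower at an unadjusted p under 0.05 in the authors' DESeq2 test. The 6 base ATPase genes, whose products form the ring that unfolds substrates, were all above 0, from Psmc3 (0.03, adjusted p 0.888, SE 0.07) to Psmc4 (0.23, adjusted p 0.185, SE 0.11) in the authors' deposited table. Psmc3 has a narrow interval under a normal distribution, from -0.11 to 0.16, whose upper end lies near the median of the members.

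The 3 base genes that encode no ATPase had the highest median level per length of any group, 1378 counts per kb of transcript. Psmd1, a large scaffold subunit, had the smallest adjusted p of the core and regulatory particles (0.19, adjusted p 0.0987, SE 0.07, mean count 3239) in the authors' deposited table. Psmd4, a ubiquitin receptor, stood there at 0.13 (adjusted p 0.213, SE 0.06). By contrast, Psmd2, the other large scaffold, had the highest count of any member (5906) and a value of -0.01 (adjusted p 0.947, SE 0.06) in the authors' deposited table, with a 95% interval from -0.12 to 0.10. Words shared with other annotated genes, mainly the pseudogene Gm5422, made up 26.1% of the Psmd2 transcript.

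In the lid, 7 of 8 genes were above 0, with a median of 0.14. Psmd14, which encodes the enzyme that cuts the ubiquitin chain off the substrate, was highest (0.24, adjusted p 0.216, SE 0.12) in the authors' deposited table. Psmd3 stood apart at the other end (-0.21, adjusted p 0.213, SE 0.10, mean count 650) in the authors' deposited table, with an interval from -0.41 to -0.01. The difference between the value of Psmd3 and those of the other lid genes was not tested.

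The activators and the inhibitor held the widest range of values. Psme1 and Psme2 encode the subunits of an interferon-inducible cap, Psme3 a nuclear cap, and Psme4 a large single-chain cap that acts in germ cells. Psme2 stood at 0.35 (adjusted p 0.134, SE 0.14), Psme1 at 0.14 (adjusted p 0.379, SE 0.09) and Psme3 at 0.10 (adjusted p 0.380, SE 0.07) in the authors' deposited table. Psme4 (-0.18, adjusted p 0.272, SE 0.10) and Psmf1, an inhibitor of the core particle (-0.21, adjusted p 0.227, SE 0.10), were below 0 in the authors' deposited table. None of these 5 passed the test. The SE of Psme2 was 1.58 times the median of rows of like mean count, the highest ratio among the members.

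Psme2b was the member with the largest change. It rose 1.69-fold (log2 fold change 0.75, adjusted p 0.00228, SE 0.17, mean count 135) in the authors' deposited table, with a 95% interval from 0.41 to 1.10. The call ended with a t distribution of 6 degrees of freedom (adjusted p 0.439) and with the SD of the DESeq2 statistic estimated from all rows (adjusted p 0.412). These settings left 0 and 5 of all rows called, in that order. Psme2b lies on chromosome 11 (48945345 to 48946410 in GRCm38), whereas Psme2 lies on chromosome 14 (55587440 to 55591101). GENCODE annotates 1 exon for Psme2b and up to 11 for a Psme2 transcript. Of the 50-base words of the Psme2b transcript, 68.7% also occur in transcripts of Psme2, and 59.3% of those of Psme2 occur in Psme2b. Reads of either gene could therefore count for the other, and the change of Psme2b is uncertain as that of a separate gene.

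Psme2b also overlaps a neighbour on the same strand, 9930111J21Rik1, whose annotated end lies within it. Another protein-coding gene annotated on that strand, Gm12185 (48904656 to 48992226), spans the whole of Psme2b. These overlapping genes, and the genes beside them, were looked up after the value of Psme2b was seen. 9930111J21Rik1 rose by 1.02 (adjusted p 0.00787, SE 0.26, mean count 72.2) in the authors' deposited table. Next to them, the interferon-inducible GTPase genes Irgm1 (0.48, adjusted p 0.215, SE 0.23) and Ifi47 (0.68, adjusted p 0.494, SE 0.51) did not pass in the authors' deposited table, nor did 9930111J21Rik2 (1.97, adjusted p 0.0774, SE 0.71). On either side beyond them, Trim41 stood at -0.10 and Zfp62 at 0.03 in the authors' deposited table. Elsewhere in the genome, the interferon pathway gene Irf1 stood at -0.003 (SE 0.10), and Tap1, the peptide transporter gene next to Psmb9, at 0.80 (adjusted p 0.374, SE 0.49) in the authors' deposited table. Whether shared or overlapping reads bear on the value of Psme2b was not tested.

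Among the genes for assembly, Psmg1 was called. It encodes a chaperone that, paired with the product of Psmg2, starts the alpha ring. Psmg1 (chromosome 16, 95979933 to 95990960 in GRCm38) rose 1.27-fold (log2 fold change 0.35, adjusted p 0.0496, SE 0.12, mean count 440) in the authors' deposited table, just inside the threshold. Its 95% interval runs from 0.12 to 0.57, and 0 of its 50-base words occurred in another annotated gene. The call ended when p-values were adjusted over protein-coding genes only (adjusted p 0.0517) or fold changes were centred on the median of all rows (adjusted p 0.0503), with the other values in the closing section.

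The partner Psmg2 stood at 0.16 (adjusted p 0.637, SE 0.16), and the second chaperone pair at 0.19 for both Psmg3 (SE 0.32) and Psmg4 (SE 0.15) in the authors' deposited table. Genes for chaperones of the regulatory particle lay lower. Psmd5 stood at 0.07 (SE 0.09), Psmd10 at 0.03 (SE 0.20) and Psmd9 at -0.19 (adjusted p 0.476, SE 0.14) in the authors' deposited table. The lower value of that second set against the first was not tested.

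The pattern also takes in Psmc3ip, which is no proteasome gene. It is named for an interaction with the product of Psmc3 and encodes a partner of the strand exchange proteins of meiotic recombination. Psmc3ip stood at -0.12 (adjusted p 0.715, SE 0.15) in the authors' deposited table. Without it, 42 of 48 members were above 0.

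Levels can be compared between genes only per length, so the mean count over all libraries was divided by the length of the longest GENCODE transcript. By this measure the median member had 471 counts per kb, against 66.7 over all rows. Among the constitutive groups the medians were 722 for the alpha ring, 683 for the beta ring, 690 for the base ATPases, 542 for the lid and 1378 for the other base genes. Within the alpha ring, whose proteins stand in equal number in the particle, the levels still ranged from 304 for Psma2 to 2224 for Psma4. Psma8 had 238 counts per kb and Psma7 722. The longest transcript may not be the one these cells use, and 31.5% of the words of Psma4 occur in other annotated genes, so these ratios are approximate.

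The special groups were lower. The assembly genes had a median of 207 counts per kb, from 23.1 for Psmg3 to 471 for Psmg4. Immune and thymic subunits had 8.64 for Psmb9, 22.3 for Psmb11 and 188 for Psmb10. The plot of counts per kb by role shows these groups.

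**Figure D2:**
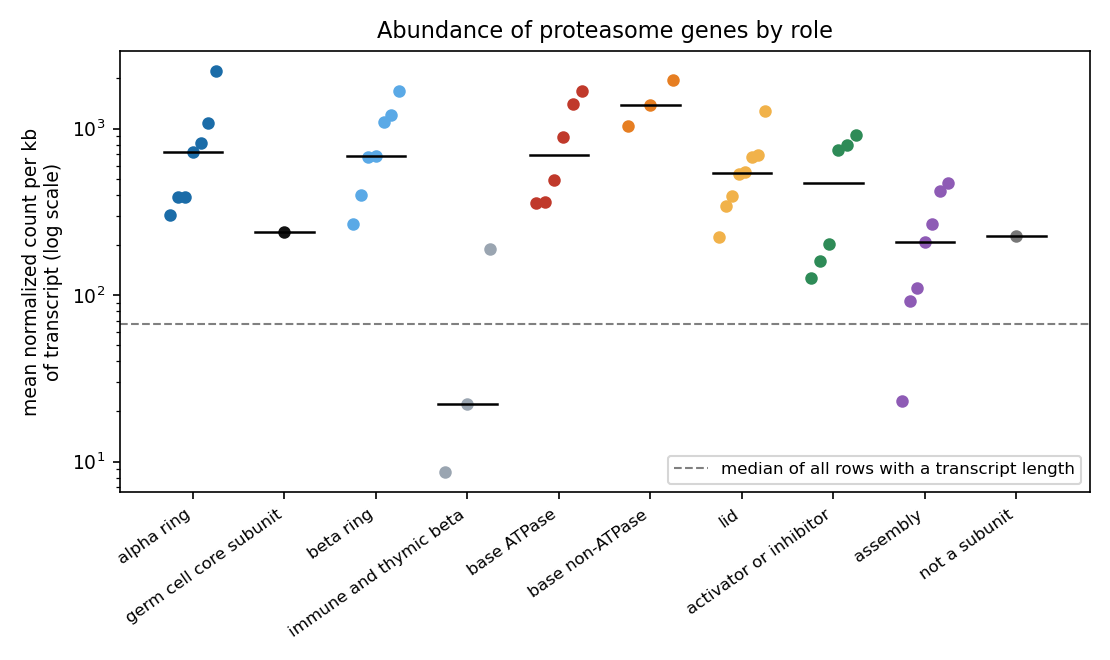
Mean normalized count per kb of the longest transcript for each member, by role, on a log scale. Black bars are group medians and the dashed line is the median of all rows. The alpha and beta rings and the ATPases have medians between 683 and 722, and Psmb9 is lowest at 8.64.

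Across all protein-coding rows, log2 fold changes rose with mean count (Spearman rho 0.21) and fell with GC content (rho -0.17) and transcript length (rho -0.08), as a description across 13693 genes. The members have short transcripts, with a median of 1883 bases against 3364 for protein-coding rows. Among the 49 members the rho of log2 fold change with length was -0.35 and with mean count -0.03, again as a description of genes that share libraries. A trend on length, GC content and mean count was therefore fitted over protein-coding rows and subtracted.

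With this trend removed, 38 of 49 members remained above 0, beside 54.6% of protein-coding rows, and their median was 0.08, against 0.02. All 14 genes of the core rings were still above 0, with a median of 0.10. In the regulatory particle the count was 12 of 17, with a median of 0.05. Psme2b (0.85, adjusted p 0.000452) and Psmg1 (0.37, adjusted p 0.0485) passed, beside 2.96% of protein-coding rows. With the trend fitted with weights of 1 over the squared SE, an alternative added after the data were seen, 34 members were above 0, beside 52.3% of protein-coding rows. Their median was then 0.02, against 0.0096, with 10 of the 14 core genes above 0, and Psmg1 no longer passed (adjusted p 0.280). The shift of the set as a whole thus depends on how this trend is handled. The plot of deposited against trend-removed values shows the change gene by gene.

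**Figure D3:**
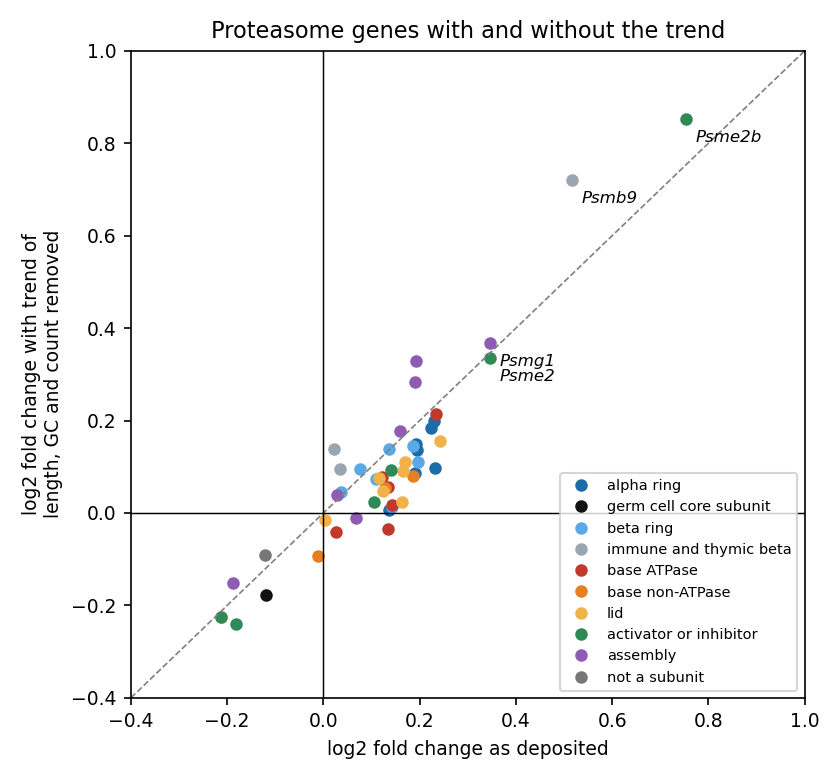
Log2 fold change of each member as deposited (horizontal) and with the unweighted trend of length, GC content and mean count removed (vertical), coloured by role, with the dashed line marking equal values. Most ring, base and lid genes lie below the dashed line but above 0, and Psme2b and Psmb9 lie above it.

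**Figure D4:**
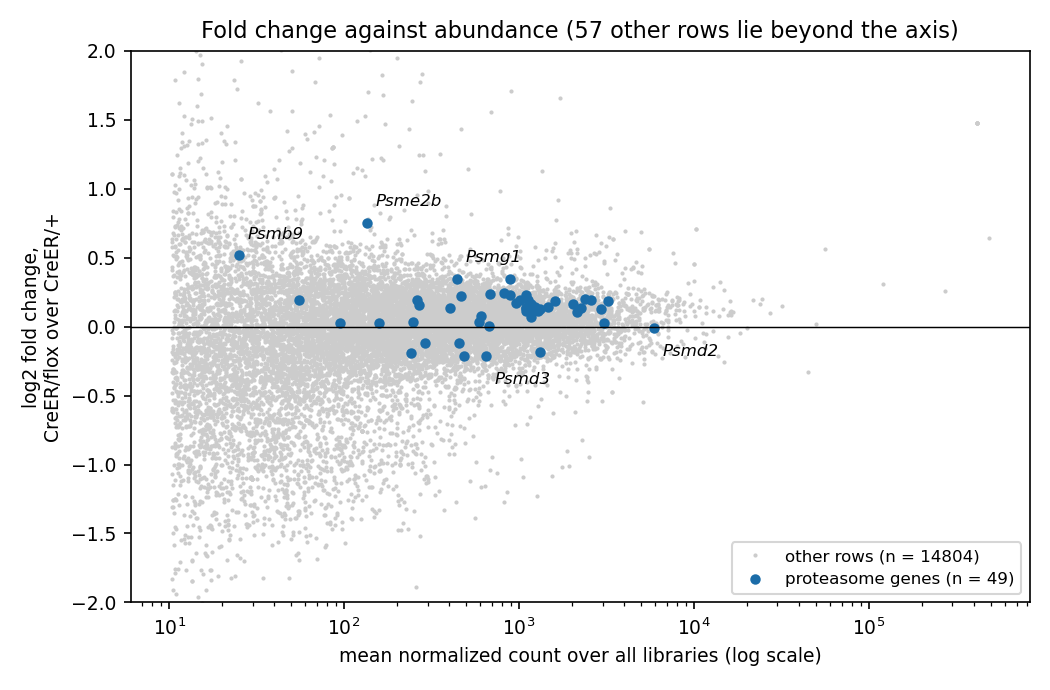
Log2 fold change against mean normalized count on a log scale for 14853 rows, with the 49 members in blue; 57 other rows lie beyond the vertical axis. Of the members, 46 have a mean count of at least 100 and 42 lie above 0, and Psme2b is the member farthest from the rest.

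Genes of the pathway under other names were taken by role. Of 38 measured, 27 were above 0, with a median of 0.05, and 2 rose in the authors' deposited table, which is 5.26% beside 5.36% of all rows. Uba6, one of the enzymes that activate ubiquitin, rose by 0.39 (adjusted p 0.00174, SE 0.09, mean count 1658), whereas Uba1, the main activating enzyme, stood at 0.02 (adjusted p 0.917, SE 0.07) in the authors' deposited table. Txnl1, a thioredoxin-like protein bound to the regulatory particle, rose by 0.38 (adjusted p 0.00643, SE 0.10) in the authors' deposited table. Neither passed with the unweighted trend removed (adjusted p 0.0763 and 0.146).

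Subunits and factors under other names had a median of 0.13 over 13 genes, 11 of them above 0. Among them were the lid subunit gene Sem1 (0.13, SE 0.08), the core assembly factor gene Pomp (0.13, SE 0.09), the deubiquitinase genes Uchl5 (0.21, SE 0.11) and Usp14 (0.17, SE 0.09), and the ubiquitin receptor gene Adrm1 (-0.02, SE 0.08), none called in the authors' deposited table. The 10 genes for transcription of proteasome genes had a median of 0.01 and 0 called, with 0 higher and 2 lower at an unadjusted p under 0.05. Nfe2l1, which encodes the factor that raises proteasome gene expression when proteasome activity is short, stood at -0.09 (adjusted p 0.459, SE 0.07) in the authors' deposited table. Its activating protease has a broadly expressed form from Ddi2 (0.05, SE 0.08) and a relative from Ddi1 (-1.01, adjusted p 0.0602, SE 0.35) in the authors' deposited table. Ubiquitin genes with their activating enzymes were all above 0, with a median of 0.12 over 6 genes. Shuttle factors and the unfoldase had a median of 0.02 over 9 genes, with Vcp, the unfoldase gene, at -0.03 (SE 0.06) in the authors' deposited table.

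Values of other large complexes are given for comparison, without a test of the difference. Subunits of the chaperonin CCT, which folds tubulin and actin, had 8 of 9 values above 0, a median of 0.14 and 0 called, with 5 higher and 1 lower at an unadjusted p under 0.05. The COP9 signalosome, whose subunits resemble those of the proteasome lid, had 9 of 10 values above 0 and a median of 0.12, with Cops2 called (0.28, adjusted p 0.0362, SE 0.09) in the authors' deposited table. The 77 cytoplasmic ribosomal protein genes had 73 values above 0, a median of 0.17 and 12 called, all higher, which is 15.6% beside 1.94% of all rows called higher. The median of the 31 core and regulatory particle genes was 0.14. The core particle alone had a median of 0.19, above those of the comparison complexes, and the regulatory particle one of 0.13. With the unweighted trend removed, the medians were 0.10 for the core, 0.05 for the regulatory particle, 0.0025 for the chaperonin, 0.06 for COP9 and 0.09 for the ribosomal proteins. With the weighted trend removed they were 0.033, 0.011, 0.0013, 0.027 and 0.032, in that order. The median of the core then lay close to those of COP9 and the ribosomal proteins. Exceptions within these lists included the testis-enriched chaperonin gene Cct6b (-0.73, adjusted p 0.146, SE 0.31) in the authors' deposited table. The plot of complexes side by side shows their values.

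**Figure D5:**
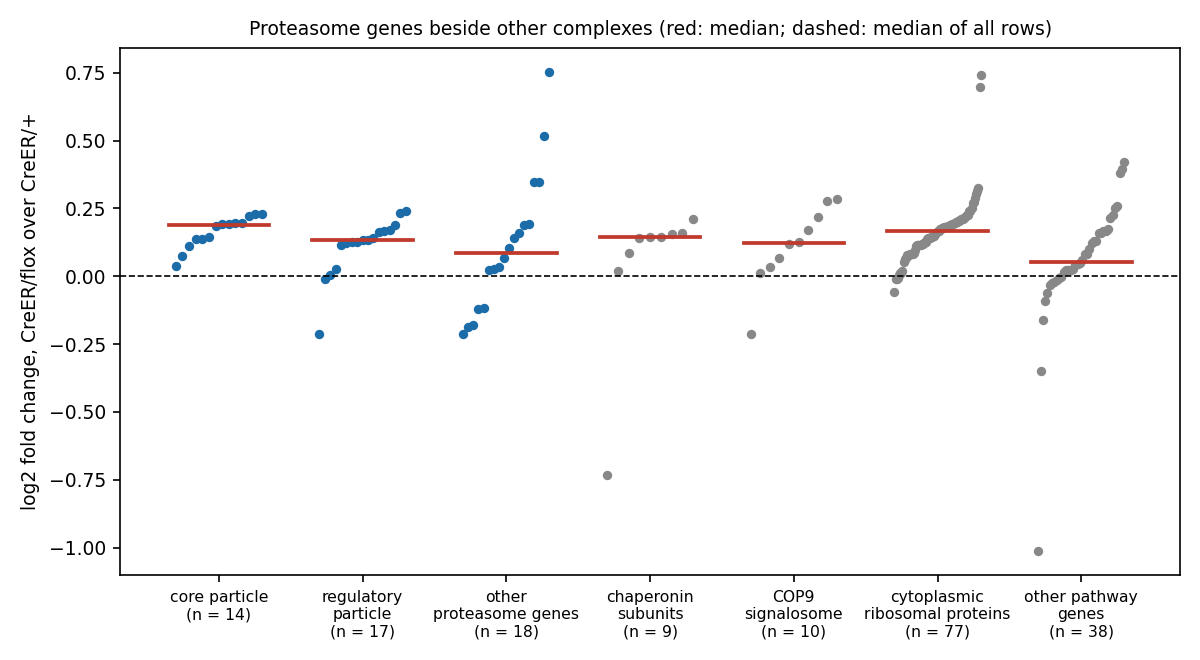
Log2 fold change of each gene, sorted within its group, for 14 core, 17 regulatory and 18 other proteasome genes (blue) and 4 comparison lists (grey). Red bars are medians and the dashed line is the median of all rows. The core, chaperonin, COP9 and ribosomal lists have medians between 0.12 and 0.19.

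Markers of cell types give the setting of these values. The 16 markers of undifferentiated spermatogonia all had a row, with mean counts up to 5143 for Zbtb16, and their median was -0.05. None was called, and at an unadjusted p under 0.05, 1 was higher and 2 lower. Of 6 markers of differentiating spermatogonia 0 were called and 2 were above 0, with values from -0.91 for Dmrtb1 to 0.30 for Stra8. Their mean counts ran from 19.9 for Prdm9 to 681 for Sohlh2. Kit, the marker used in sorting, had a mean count of 93.1 and stood at -0.29 (SE 0.21). Spermatid markers were lower in the flox samples, with 18 of 18 below 0, a median of -1.11 and 7 called, at mean counts from 21.8 to 1924. Of 11 spermatocyte markers 2 were called, both lower, and 4 were above 0. In bulk RNA, fewer cells of a type and less RNA per cell cannot be told apart. Psma8 (-0.12) and Psme4 (-0.18), which serve germ cells in meiosis and sperm formation, lay below 0. The medians of the spermatocyte and spermatid markers (-0.35 and -1.11) did too, as did other members, among them Psmd3 (-0.21), Psmf1 (-0.21) and Psmd9 (-0.19). The part of spermatocytes and spermatids in the values of Psma8 and Psme4 was not tested. Among leukocyte markers, Cd3e and Fcer1g had mean counts of 18.7 and 11.8 with none called, and the other 11 of 13 were not analysed here. Cd3e stood at 0.90 (SE 0.48) and Fcer1g at 1.41 (SE 0.59). Both lie near the lowest mean count of any row (10.4). A marker of so low a count may have a row only through the group where it is higher, so nothing is read from their direction. Psmb9 (0.52) and Psme2 (0.35), which leukocytes express, lay above 0. Psmb10, also an immune subunit gene, stood at 0.03, and Psme1, the partner of Psme2, at 0.14, the median of the members. The part of leukocytes in these values was not tested. The 6 measured Sertoli cell markers had 3 values above 0 and a median of 0.16, from -0.50 for Sox9, and of these only Trf was called, higher (0.62, adjusted p 0.00255, SE 0.15) by the authors' deposited table, and the single measured Leydig cell marker, Star, had a mean count of 46.4.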

How the data were processed

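The data were total RNA sequencing of 4 CreER/flox and 4 CreER/+ samples, of which the authors' comparison table was used. Its mean counts are a normalized count signal that the authors averaged over all libraries, per the file headers. The log2 fold changes and SEs in it were fitted by the authors, and the deposited score is their Wald statistic. The deposited p-values matched a normal distribution of that score to within 0.424%, and the adjusted ones a Benjamini-Hochberg adjustment over all rows to within 0.426%. The submitters' processing notes list DESeq2, TopHat2 2.0.4, Bowtie, Bowtie2 2.0.0-6 and Trim Galore, and the builds GRCm38 and mm10. For the read counter, the gene annotation, the handling of multiply mapped reads and the use of strand, nothing is given in the sources used here. Reads of a gene and an antisense neighbour therefore cannot be told apart.

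The libraries were not modelled again. Calls were made at the authors' DESeq2 adjusted p under 0.05, and p-values measure only the spread between these samples, which may be technical. Intervals of 95% took a normal distribution. Gene IDs were matched to RefSeq of GRCm38.p6 (14828 of 14853 rows and 49 of 49 members). Lengths and GC content came from the longest GENCODE M21 transcript, found for 49 members and 99.6% of protein-coding rows. The trend used least squares with terms up to power 3 of log2 length, GC content and log2 mean count. Shared sequence was counted as 50-base words of a member's longest transcript found in transcripts of another gene on either strand. Total counts per library were not used here, so depth is given as mean counts and SEs. Steps were tested on simulated data and ran in Python 3.11.15 with numpy 2.4.6, pandas 2.3.3, matplotlib 3.10.9 and scipy 1.17.1.

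The members, gene lists and tests were chosen with earlier results of these data known, and the promoter motifs after the values were seen. Named were called members, the highest and lowest of each group by role, cleaving and immune subunits, Psma7, Psma8, Psme4, Psmd14, Psmc3ip, the members of lowest and highest count and of largest SE for their count, and called genes of the pathway list. Alternatives were other thresholds, other sets of rows for the adjustment, other distributions of the statistic, centring, removal of the trend and other definitions of the members. The weighted trend and the removal of members with over 20% shared words were added after the data were seen.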

Additional observations from a re-analysis of the deposited data

How the results depend on the processing

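No paired analysis was possible because the table holds no values per sample, and for the same reason no library could be left out. Of 49 members, the 2 called became 1 at an adjusted p under 0.01, with adjustment over protein-coding genes only, with centring, with the weighted trend removed, and without the 8 members that share over 20% of their sequence words, Psme2b among them. Both calls ended with a t distribution of 6 degrees of freedom, under which 0 of all 14853 rows were called. At an unadjusted p under 0.05, 5 of 49 members were then higher and 0 lower, beside 1652 of 14853 rows in either direction. Taken in either direction, the share of members was thus slightly below that of all rows. All rows were not counted by direction under this setting. Both calls also ended with the SD of the DESeq2 statistic estimated as 1.45 from all rows, which left 5 of all rows called. With that SD, 2 of 49 members were higher and 0 lower at an unadjusted p under 0.05, beside 986 of 14853 rows in either direction. The share of members in either direction was again below that of all rows, which were not counted by direction. The adjusted p over these settings ran from 0.0450 to 0.720 for Psmg1 and from 0.000452 to 0.439 for Psme2b. Among pathway genes, the 2 called became 5 at an adjusted p under 0.10, 1 with the weighted trend removed, and 0 with the unweighted trend removed, the t distribution or the estimated SD.

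The number of members above 0 ran from 34 to 42 of 49 under settings that kept all members. The median fell from 0.14 to 0.08 with the trend removed and to 0.020 with the weighted trend removed. Of the 49 members, 4 turned from above to below 0 with the trend removed, namely Psmc3 (-0.040), Psmc6 (-0.035), Psmd8 (-0.016) and Psmd5 (-0.0100). With the weighted trend removed 8 did, namely Psmc3 (-0.034), Psma3 (-0.019), Psmb2 (-0.081), Psmb7 (-0.012), Psma4 (-0.00090), Psmc6 (-0.075), Psmd8 (-0.054) and Psmd10 (-0.11). By the rule for named genes, 25 members were followed under the settings. Of the outcomes, 234 kept direction and call, 8 lost the call, 1 gained it and 5 changed sign. Only centring and removal of a trend change a fold change, so under the other settings no sign could turn. The sign changes came from the weighted trend (4) and the unweighted trend (1). Of these members only Psme2b and Psmg1 were called at first, so the others had no call to lose. Depth limits Psmb9, Psmg3 and Psmb11, whose mean counts were under 100.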
